A study of Mus musculus with 8 samples.

Results

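Nuclear genes that serve mitochondria were compared between cultured mouse cortical astrocytes with and without connexin43 (Cx43). The set held the respiratory chain, the mitochondrial ribosome, the protein import machinery and the mitochondrial carriers. Members were taken by the start of their symbol, namely Nduf, Cox4 to Cox8, Atp5, Uqcr, Sdha to Sdhd, Mrpl, Mrps, Timm, Tomm and Slc25a, among array features that name a single gene. This gave 100 genes on 110 features, of the 5822 genes so named on the array. Of the 100 genes, 56 carried a ratio on at least 3 wild-type (WT) and 3 Cx43 knockout (Cx43 KO) arrays and could be tested. The rule itself uses no expression difference, but the members were chosen with earlier results of these data known.

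Each of 8 arrays set total RNA of cultured cortical astrocytes against a common reference pool of adult male and female mouse tissues, namely the heart and aorta, liver, kidney and stomach, brain, lung and spleen, and the ovary or testicles. There were 4 WT arrays and 4 Cx43 KO arrays. The astrocytes came from neonatal mice, WT or Cx43 null, with no treatment named. The strain C57BL/6j is given for the astrocytes of WT 1 and for the pool. The source labels of the other 7 astrocyte samples are cut short before any strain. Arrays were numbered 1 to 4 in each genotype, and their labels carry a lot batch with the same number, which thus joins 1 WT with 1 Cx43 KO array. Cx43 KO 3 is titled Cx43 only, without KO. Whether separate animals or cultures stand behind the 4 samples of a genotype is not stated, so the p-values below reflect the spread of these samples alone, and that spread may be technical.

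Most mitochondrial proteins are encoded in the nucleus, made in the cytosol and carried inward through the TOM complex of the outer membrane and the TIM complexes of the inner membrane. The mitochondrial ribosome then translates the few proteins that the mitochondrial genome encodes, which are core parts of complexes I, III and IV and of ATP synthase. Complexes I to IV move electrons from NADH and succinate to oxygen, and the Slc25 carriers exchange metabolites across the inner membrane. Astrocytes are known for strong glycolysis and lactate release, and they also respire. Cx43 is their main gap junction protein.

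Many promoters of respiratory genes are known to be rich in CG pairs, to lack a TATA box and to hold sites for NRF1, ETS factors such as GABPA, YY1 or SP1. Promoters of 6 members are shown because the results below turn on these genes or because they carry the motifs looked for. Each is the 250 bases before the annotated start, 5′ to 3′ on the gene's own strand, from the RefSeq table of build GRCm38.p6. Capitals mark a motif match on either strand. Ndufa3 lies at chr7:3617123-3617372 on the plus strand, Uqcr10 at chr11:4704345-4704594 on the minus strand and Cox6b2 at chr7:4753095-4753344 on the minus strand. Sdhb lies at chr4:140961021-140961270 on the plus strand, Mrps36 at chr13:100744660-100744909 on the minus strand and Mrps27 at chr13:99344536-99344785 on the plus strand.
Ndufa3: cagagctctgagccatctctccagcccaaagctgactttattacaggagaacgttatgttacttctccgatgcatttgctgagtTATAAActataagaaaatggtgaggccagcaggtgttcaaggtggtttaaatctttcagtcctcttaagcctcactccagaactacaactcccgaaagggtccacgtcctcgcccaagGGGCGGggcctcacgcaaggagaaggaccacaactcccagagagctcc
Uqcr10: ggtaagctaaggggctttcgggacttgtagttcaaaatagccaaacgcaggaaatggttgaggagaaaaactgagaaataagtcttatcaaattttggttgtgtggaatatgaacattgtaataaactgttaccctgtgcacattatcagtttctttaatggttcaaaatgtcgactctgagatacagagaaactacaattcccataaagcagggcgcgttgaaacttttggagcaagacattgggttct
Cox6b2: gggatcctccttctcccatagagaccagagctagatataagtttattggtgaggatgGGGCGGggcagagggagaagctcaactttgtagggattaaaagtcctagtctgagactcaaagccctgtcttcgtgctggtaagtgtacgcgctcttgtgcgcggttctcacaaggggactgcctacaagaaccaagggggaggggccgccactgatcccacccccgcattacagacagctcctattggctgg
Sdhb: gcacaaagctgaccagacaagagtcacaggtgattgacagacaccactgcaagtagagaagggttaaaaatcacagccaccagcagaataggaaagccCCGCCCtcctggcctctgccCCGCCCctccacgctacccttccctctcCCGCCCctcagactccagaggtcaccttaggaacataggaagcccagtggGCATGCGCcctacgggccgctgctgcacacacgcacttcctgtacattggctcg
Mrps36: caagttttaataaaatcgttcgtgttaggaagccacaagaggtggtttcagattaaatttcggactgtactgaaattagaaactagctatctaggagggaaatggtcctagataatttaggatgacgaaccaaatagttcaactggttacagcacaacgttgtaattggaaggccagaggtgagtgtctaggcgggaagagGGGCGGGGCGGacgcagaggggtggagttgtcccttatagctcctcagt
Mrps27: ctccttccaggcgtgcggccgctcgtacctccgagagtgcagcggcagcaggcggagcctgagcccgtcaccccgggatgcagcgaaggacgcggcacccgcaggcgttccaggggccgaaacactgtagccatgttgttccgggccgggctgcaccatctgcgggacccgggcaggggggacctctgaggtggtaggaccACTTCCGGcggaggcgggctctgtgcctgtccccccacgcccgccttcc

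The letters searched on both strands were GCGCATGC for NRF1, CCGGAAGT for ETS factors, AAGATGGC for YY1, GGGCGG for the SP1 GC box and TATAAA for the TATA box. Sdhb held an NRF1 match 54 bases before the start and 3 GC boxes. Mrps36 held 2 overlapping GC boxes, Cox6b2 held 1, and Mrps27 held an ETS match 49 bases before the start. Ndufa3 held a GC box and a TATA match, the latter 166 bases before the start. Uqcr10 held none of these letters in this window.

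The table gave 95 promoters for 88 of the 100 member genes, among 32851 promoters in all. NRF1 letters stood in 9 of the 95 (9.5%), against 2.26% of all promoters of this length, and ETS letters in 8 (8.4%), against 2.88%. YY1 letters stood in 2 (2.1%), against 1.56%. A GC box stood in 56 (58.9%), against 32.74%, and the TATA letters in 4 (4.2%), against 12.37%. Some genes gave 2 promoters, which can overlap and share a match. The 56 belong to 51 genes and the 4 to 3 genes. The median promoter held 15 CG pairs among members and 6 among all. The motif shares are not corrected for this difference in CG content. Matches of different motifs overlapped in 0 member promoters, and the NRF1 letters, which nearly read the same on both strands, overlapped themselves in 4. A match describes these letters only.

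Over the whole array, 3506 (WT 2) to 5514 (WT 1) of 9568 features carried a ratio, and 3505 genes and unnamed features could be tested. Values are log2 ratios of astrocytes over pool, with base 2 assumed. Each array was centred on its median, so 0 stands for the typical feature of that array and not for an equal amount of RNA. The labels put astrocyte RNA in channel 2 but give no dyes. The direction of the ratio is therefore likely rather than known, and was set from astrocyte markers (median 1.18 over 6 tested) and adult tissue genes (median -1.35 over 7 tested), whose sides are thus no finding. If the channels ran the other way, every level and every genotype difference below would keep its size and change its sign. The annotation names 0 features for Gja1, the gene of Cx43, which leaves the genotype labels unchecked on their target.

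Cx43 KO 4 stood apart in its cell type markers. The mean of 4 astrocyte markers was 1.62 to 1.93 on the WT arrays, 1.66, 1.75 and 1.81 on Cx43 KO 1 to 3 and 0.49 on Cx43 KO 4. The mean of 7 microglia and macrophage markers was 0.70 to 1.38 on the WT arrays, and 0.05, 0.31, 1.22 and 2.51 on Cx43 KO 1 to 4. The mean of 6 fibroblast, meningeal and mural markers was 0.53 to 2.22 on the WT arrays, and -0.53, -0.12, 0.81 and 2.56 on Cx43 KO 1 to 4. Tested were 6 of 8 astrocyte genes on the array, 8 of 16 microglia genes and 8 of 11 fibroblast genes. Slc1a2, Fcer1g, Ctss, Ptprc, Mpeg1 and Coro1a of these lists had no ratio on any array. In bulk RNA, fewer cells of a type and less RNA per cell cannot be told apart. Counts without Cx43 KO 4 are given below for the members' levels, for unadjusted p-values and for the sign balance. On WT 1 the fibroblast mean was also high, at 2.22 against 0.53 to 1.15 on the other WT arrays.

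The member median varied less between arrays than these marker means. Those means rest on fewer genes, so the contrast is no finding about the members. Over all 2596 genes and features with 8 values the median lay between -0.05 and 0.06. Over the 43 members with 8 values the median measured -0.66, -0.78, -0.76 and -0.76 for WT 1 to 4. For Cx43 KO 1 to 4 the member median measured -0.78, -0.74, -0.94 and -0.88. The genotypes overlapped, since Cx43 KO 2 lay above WT 2, 3 and 4. The array with the highest member median was WT 1 and the lowest was Cx43 KO 3, where astrocyte, microglia and fibroblast means all lay within the range of the WT arrays. Of the 43 members, 12 (27.9%) had their lowest value on Cx43 KO 3, against 10.6% of all genes and features with 8 values. On WT 1, 13 members (30.2%) had their highest value, against 16.6% of all.

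**Figure D1:**
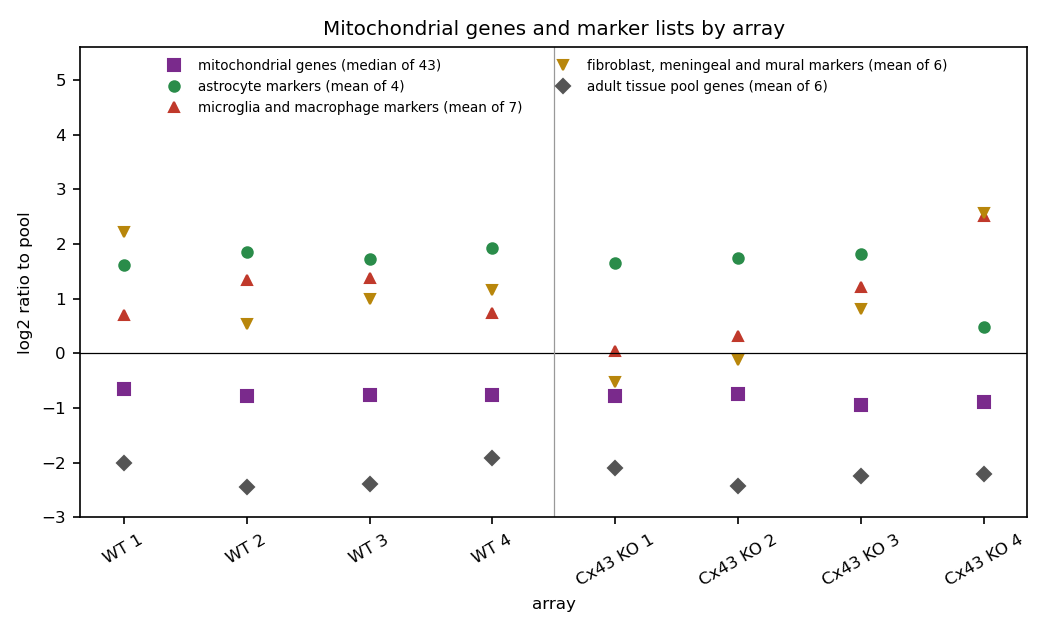
Median log2 ratio of 43 mitochondrial genes on each of the 8 arrays (squares), with the mean log2 ratio of 4 lists of cell type or tissue genes (other symbols). The squares lie between -0.94 and -0.66 on all arrays. Microglia and fibroblast means reach 2.51 and 2.56 on Cx43 KO 4, and rest on fewer genes than the squares.

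With the ratio read in its likely direction, most mitochondrial genes lay low in astrocytes against the tissue pool, in both genotypes. In the other direction the same members would lie high, 37 of 56 above and 3 below on every array. The median level of the 56 members was -0.73, which is 0.60 of the pool ratio of the typical feature, and their quartiles were -1.15 and -0.38. The median of all 3505 tested was 0.02, with quartiles of -0.49 and 0.52. Of the 56 members, 37 (66.1%) lay below 0 on every array that measured them, against 26% of all tested. Only 3 members, Ndufa9, Mrpl49 and Slc25a17, lay above 0 on every array (5.36%), against 25.4% of all tested, and 16 lay on both sides. A mean of -1 or lower, at most 0.5 of the pool ratio, was found for 19 members (33.9%), against 10.9% of all. The WT arrays alone placed 43 members below 0 on every array and the Cx43 KO arrays alone 42, against 33.1% and 32.4% of all tested.

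The level is relative to the pool, which includes heart, kidney and liver, tissues known to be rich in mitochondria, so it gives no abundance and does not rank genes against each other by RNA amount. Without centring, the median of all tested was 0.24 and that of the members -0.51, and 28 members (50%) lay below 0 on every array, against 18.1% of all. Without Cx43 KO 4, 36 of 52 members (69.2%) lay below 0 on every array, against 28.6% of all tested. The member median was then -0.68.

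**Figure D2:**
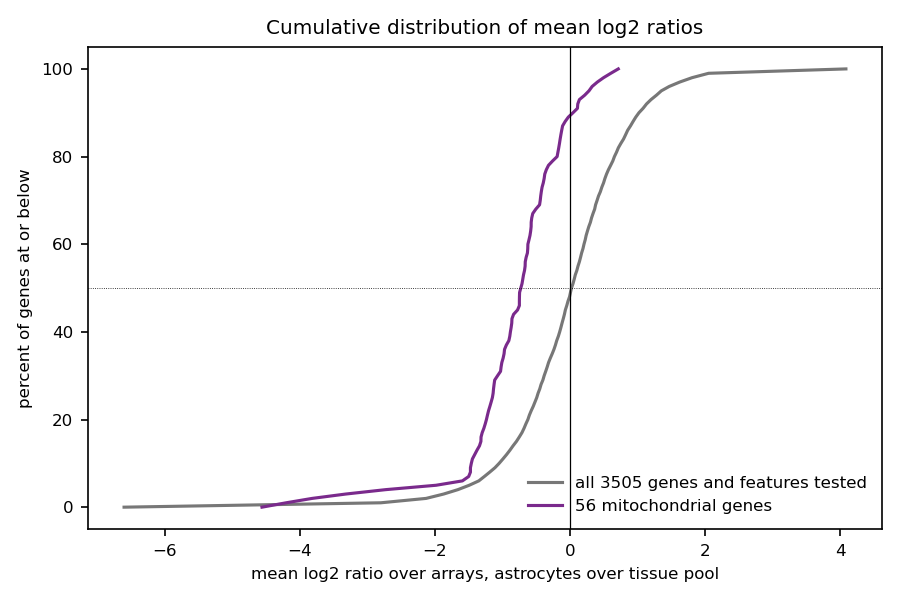
Cumulative percent of genes (vertical axis) at or below a mean log2 ratio of astrocytes over tissue pool (horizontal axis), for the 56 mitochondrial genes and for all 3505 genes and features tested. The curve of the mitochondrial genes lies to the left, with its median at -0.73 against 0.02.

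By role, median levels were -1.39 for 3 complex IV genes, -1.17 for 2 complex III genes and -0.86 for 15 complex I genes, while the single complex II gene tested, Sdhb, lay at -1.12. The large ribosomal subunit lay at -0.71 (11 genes) and the small at -0.44 (8 genes). Inner membrane import genes lay at -0.46 (4 genes), outer membrane import genes at -0.24 (4 genes) and carriers at -1.06 (8 genes). Single genes spread widely within a role, from -4.56 to -0.02 in the small ribosomal subunit, and no test was made between roles.

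**Figure D3:**
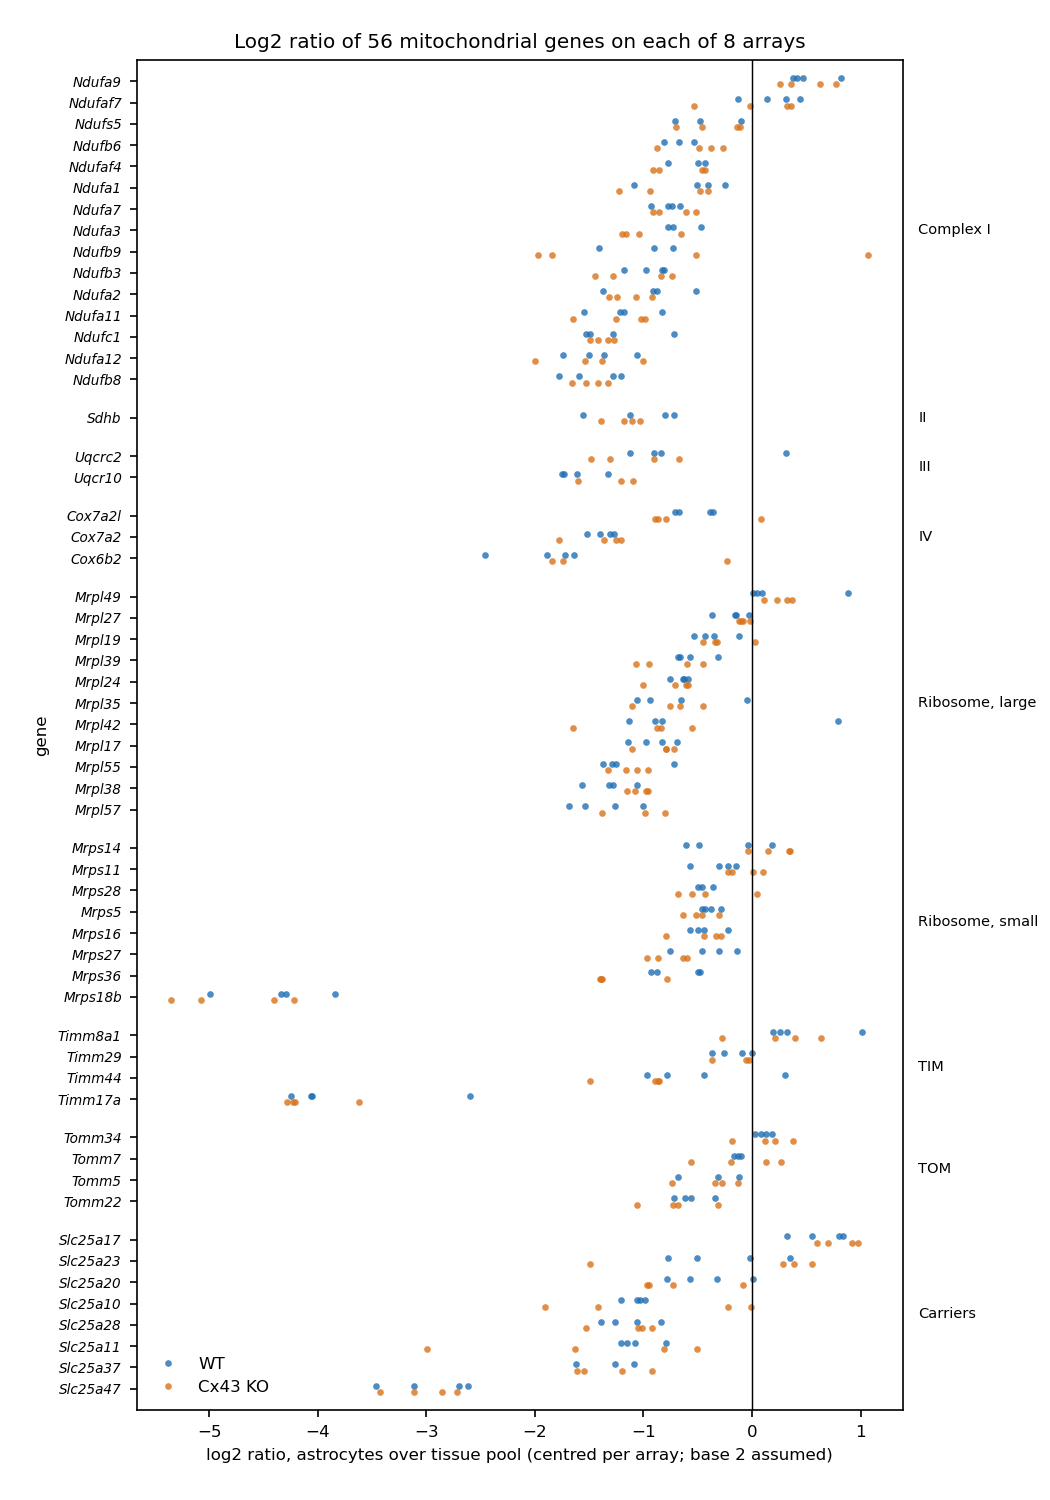
Centred log2 ratio of astrocytes over tissue pool (horizontal axis) for each of the 56 tested mitochondrial genes (rows, grouped by role and ordered by mean), with 1 point per array, blue for WT and orange for Cx43 KO. Most points lie left of 0, Mrps18b, Timm17a and Slc25a47 lie furthest left, and the 2 colours overlap in every row.

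Between genotypes, 0 of the 56 members passed limma's test at an adjusted p of 0.05 (smallest adjusted p = 0.655), and 0% of all tested did. A single gene, Mrps36, had an unadjusted p under 0.05, which is 1 of 56 (1.79%), against 7.5% of all tested. Without Cx43 KO 4 there were 3 of 52 (Mrps14, Mrps36 and Slc25a23), against 12.22% of all tested. For 0 members did the 4 arrays of one genotype lie all below, or all above, those of the other, against 2.8% of all tested with Cx43 KO lower and 2.43% with Cx43 KO higher. By sign, 31 members lay lower and 25 higher in Cx43 KO, so 55.4% lay lower, against 47.4% of all tested, and these signs too rest on the likely direction of the ratio. The median difference, Cx43 KO minus WT, was -0.03 for members and 0.02 for all, and the median size of a difference was 0.13 and 0.19.

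The 95% interval lay within 1 log2 unit of 0 for 46 of 56 members (82.1%), against 79.8% of all tested, and within 0.5 for 16 (28.6%), against 12.8%. The median standard error (SE) was 0.21 for members and 0.22 for all. The median SD among arrays of a genotype was 0.25 in WT and 0.27 in Cx43 KO for members, and 0.27 and 0.30 for all. By these unadjusted intervals, a change of under 0.5 log2 units in a single member was often not detectable with 4 arrays a group. The adjusted test was stricter. Larger differences did not pass it either, such as -1.21 for Nnt, a related gene outside the set (limma adjusted p = 0.449).

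The sign balance changed with the scaling of the arrays. The SD over all genes with 8 values was 0.89 to 0.93 on the WT arrays and 0.99 to 1.07 on the Cx43 KO arrays. Setting the arrays to a common spread turned the median member difference to 0.07, with 19 members lower and 37 higher under quantile normalization, and 18 lower and 38 higher under scale normalization. The median of all tested stayed at 0.02 and 0.03, and 47.4% and 46.3% of all tested lay lower. Leaving out Cx43 KO 4 gave 37 members lower and 15 higher, against 46.5% of all tested lower. Leaving out Cx43 KO 3 gave 23 lower and 29 higher, against 47.1% of all lower. Under every other alternative more members lay lower than higher. Their share ran from 51.1% without WT 1 to 74.4% without lot batch 4, against 46.1% and 46.7% of all tested. The side of the members as a group therefore changed with the alternative.

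**Figure D4:**
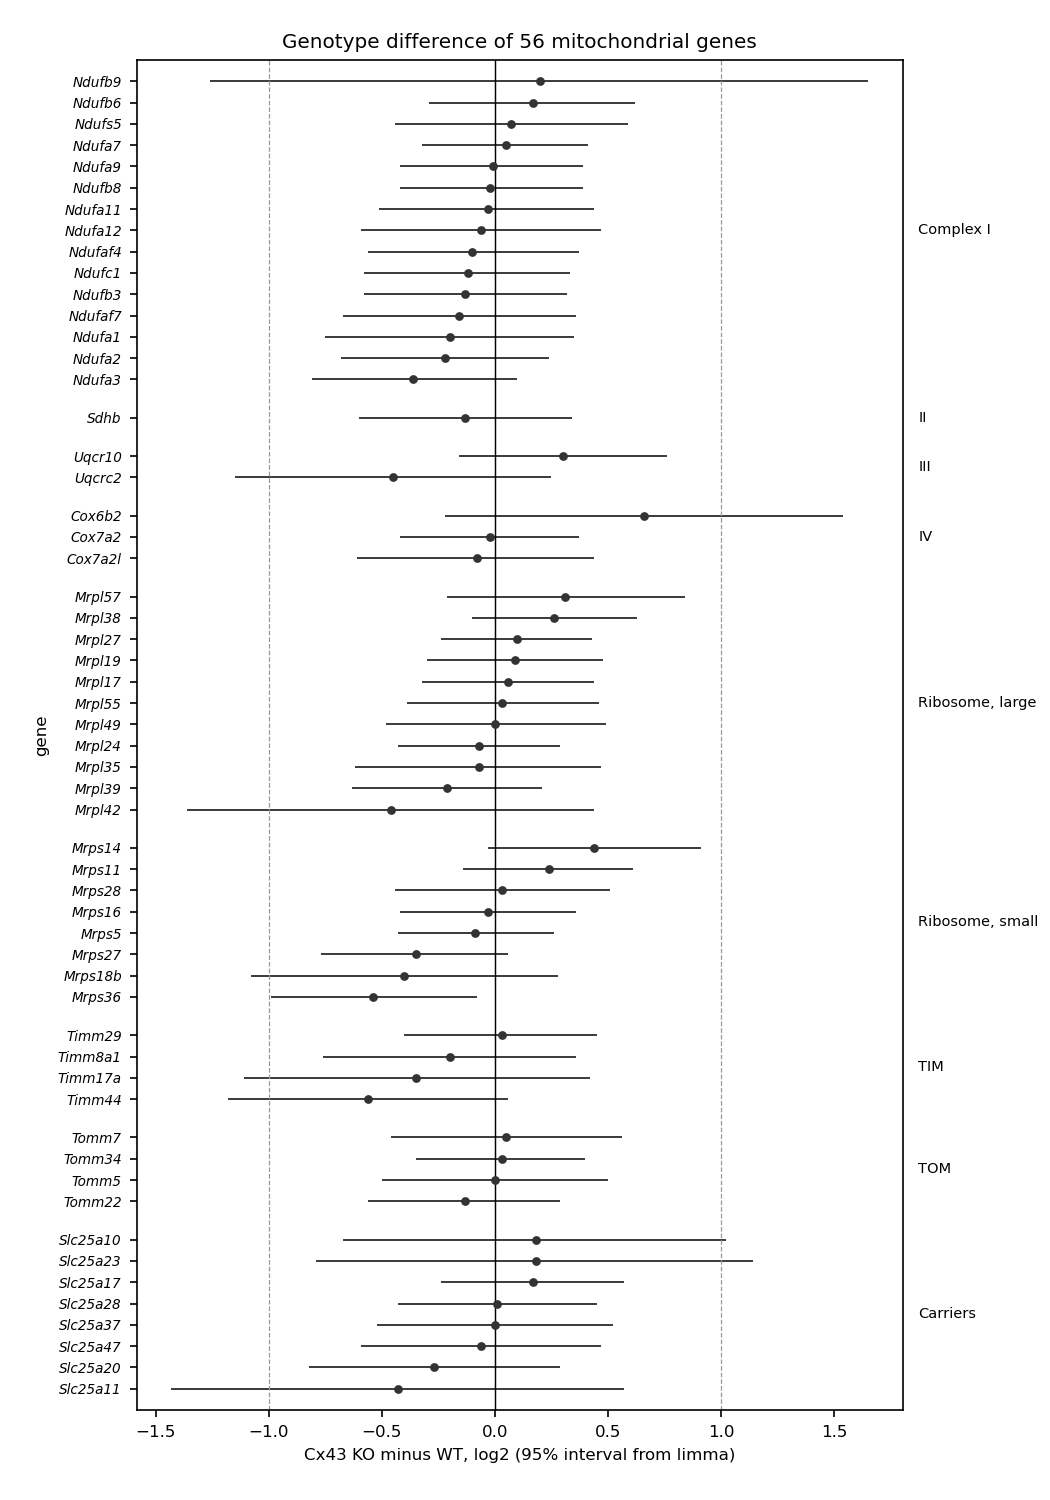
Difference between genotypes, Cx43 KO minus WT in log2 units, for the 56 tested mitochondrial genes (points) with the 95% interval from limma (bars), grouped by role. The interval of every gene but Mrps36 includes 0, and dashed lines mark a 2-fold change in either direction.

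Complex I takes electrons from NADH and is the largest complex of the chain. Tests were possible for 15 of its 23 genes, and 11 lay lower and 4 higher in Cx43 KO, with a median difference of -0.06 and 0 past the test. Ndufa3, an accessory subunit whose promoter is shown above, had the lowest difference. Its log2 ratio was -0.47, -0.73 and -0.77 on WT 1, 2 and 4, and -0.65, -1.16, -1.20 and -1.04 on Cx43 KO 1 to 4, with no ratio on WT 3. The group means were -0.65 ± 0.16 (SD, n = 3) and -1.01 ± 0.25 (SD, n = 4), a difference of -0.36 (SE 0.20, limma adjusted p = 0.738). Cx43 KO 2, 3 and 4 lay below all measured WT arrays and Cx43 KO 1 lay among them.

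Ndufb9, an accessory subunit of the membrane arm, had the highest difference of complex I, at 0.20 with a 95% interval of -1.26 to 1.65. It measured -1.41, -0.73 and -0.90 on WT 1, 2 and 4, and 1.07, -0.52, -1.84 and -1.97 on Cx43 KO 1 to 4. The Cx43 KO arrays thus lay on both sides of the WT arrays, and without Cx43 KO 1 the difference was -0.43. Ndufb8, another membrane arm subunit, lay among the 6 lowest members against the pool. Its values were -1.59, -1.78, -1.28 and -1.21 in WT and -1.33, -1.53, -1.66 and -1.42 in Cx43 KO, a difference of -0.02 (SE 0.18). All 8 arrays placed it below 0.

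Ndufa9, a subunit near the junction of the 2 arms of complex I, went the other way and lay above the pool on every array. It measured 0.47, 0.38, 0.82 and 0.41 in WT and 0.36, 0.63, 0.26 and 0.77 in Cx43 KO. Its genotype difference was -0.01 (SE 0.18). Ndufaf7, a methyltransferase needed to assemble complex I, was the other complex I gene with a mean above 0. It measured -0.13, 0.31, 0.44 and 0.14 in WT and 0.32, 0.36, -0.02 and -0.53 in Cx43 KO, with values on both sides of 0 in each genotype and a difference of -0.16 (SE 0.23). The other 10 tested complex I genes, Ndufa1, Ndufa2, Ndufa7, Ndufa11, Ndufa12, Ndufaf4, Ndufb3, Ndufb6, Ndufc1 and Ndufs5, had means between -1.45 (Ndufa12) and -0.39 (Ndufs5) and differences between -0.22 (Ndufa2) and 0.17 (Ndufb6).

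Complex II oxidises succinate and also belongs to the citric acid cycle. Its iron-sulphur subunit Sdhb, whose promoter carries the NRF1 letters, measured -0.72, -1.12, -1.56 and -0.80 in WT and -1.11, -1.18, -1.39 and -1.03 in Cx43 KO. The Cx43 KO values lay inside the WT range, and the difference was -0.13 (SE 0.21, adjusted p = 0.921). The assembly factors Sdhaf2 and Sdhaf3 had no ratio on any array.

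Complex III passes electrons to cytochrome c. Uqcr10, its small subunit, measured -1.33, -1.73, -1.75 and -1.61 in WT and -1.10, -1.60 and -1.21 on Cx43 KO 1, 3 and 4, with no ratio on Cx43 KO 2. The means were -1.60 ± 0.20 (SD, n = 4) and -1.30 ± 0.26 (SD, n = 3), a difference of 0.30 (SE 0.20, adjusted p = 0.776). Cx43 KO 1 and 4 lay above every WT array and Cx43 KO 3 among them. The difference was 0.54 under quantile normalization and 0.55 under scale normalization (unadjusted p = 0.0475 and 0.0245 in limma), and adjusted p ran from 0.367 to 0.987 over its alternatives, with 0.55 also where exact 0 was kept. Uqcrc2, a core subunit facing the matrix, measured -0.84, 0.31, -0.90 and -1.12 in WT and -0.90, -0.67, -1.31 and -1.48 in Cx43 KO, a difference of -0.45 (SE 0.32). WT 2 was the only one of the 8 arrays on which Uqcrc2 lay above 0, and the difference was -0.14 without it. Uqcrfs1, the Rieske protein, had no ratio.

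Complex IV reduces oxygen. Cox6b2, known as the testis isoform of subunit 6B, had the largest difference among all members, though it was not called. It measured -1.64, -1.89, -2.46 and -1.72 in WT and -0.23, -1.84 and -1.74 on Cx43 KO 1, 3 and 4, with no ratio on Cx43 KO 2. The means were -1.93 ± 0.37 (SD, n = 4) and -1.27 ± 0.90 (SD, n = 3), a difference of 0.66 (SE 0.39, adjusted p = 0.753). Only Cx43 KO 1 lay above the WT arrays. The difference was 1.01 under quantile normalization and 1.17 with array weights (unadjusted p = 0.0485 and 0.0133 in limma), and adjusted p ran from 0.213 to 0.987 over its alternatives. The pool holds testicles, so the low ratio of this isoform cannot be read as a low level of complex IV.

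Cox7a2, the widely expressed isoform of subunit 7A, had a WT mean of -1.38 ± 0.11 (SD, n = 4) and a Cx43 KO mean of -1.40 ± 0.26 (SD, n = 4). Cox7a2l, a related protein that takes part in joining complexes III and IV into supercomplexes, measured -0.39, -0.67, -0.36 and -0.71 in WT and -0.87, -0.79, -0.89 and 0.08 in Cx43 KO. All WT arrays lay above Cx43 KO 1, 2 and 3 and below Cx43 KO 4, so that the difference was -0.08 with all arrays and -0.32 without Cx43 KO 4. Cox4i2 and Cox6b1 had no ratio on any array, and neither had the 4 ATP synthase genes, Atp5b, Atp5e, Atp5g1 and Atp5j2, so complex V was not measured here.

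**Figure D5:**
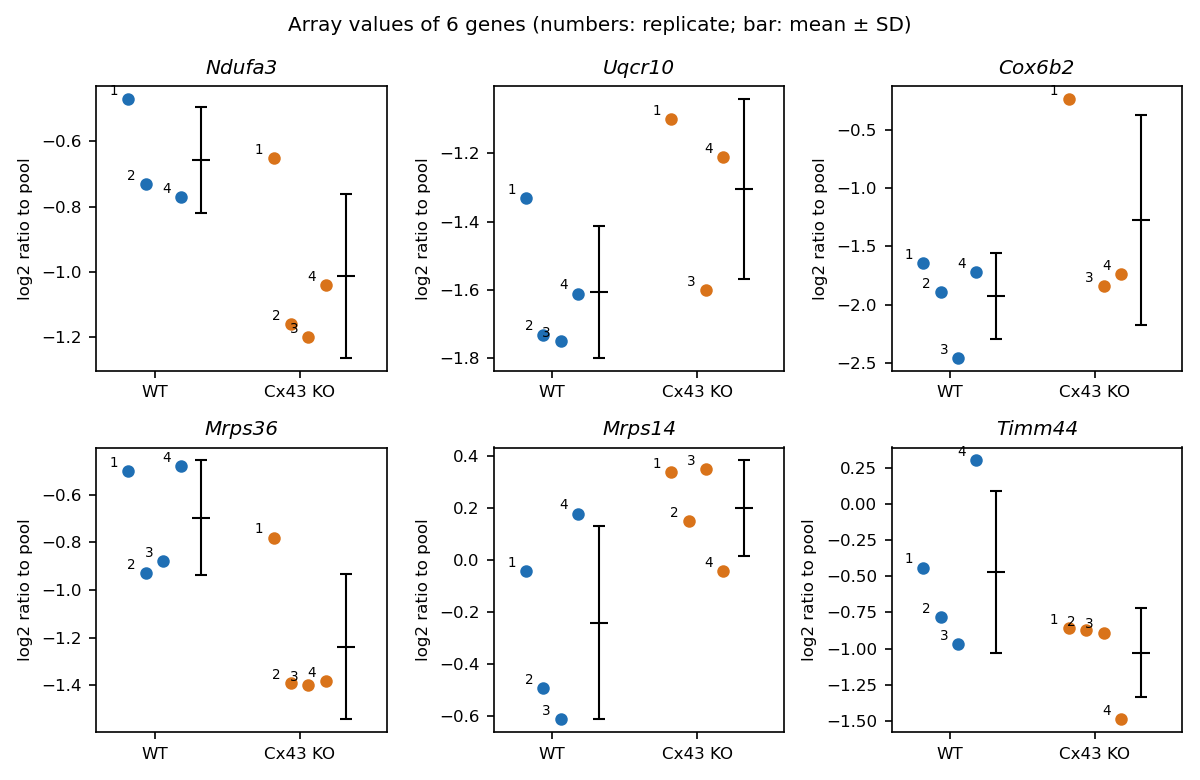
Log2 ratio to the tissue pool of Ndufa3, Uqcr10, Cox6b2, Mrps36, Mrps14 and Timm44 on each array (points, numbered by replicate), with the mean and SD of each genotype beside them (bars). Vertical scales differ between panels, and the genotypes overlap by at least 1 array in each.

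In the large subunit of the mitochondrial ribosome 11 of 22 genes were tested, of which 7 lay higher and 4 lower in Cx43 KO, with a median difference of 0.03. Mrpl57 had the highest difference, 0.31 (SE 0.23). It measured -1.0, -1.26, -1.54 and -1.69 in WT and -0.99, -1.38 and -0.80 on Cx43 KO 1, 3 and 4. Mrpl42 had the lowest, -0.46 (SE 0.41). It measured -0.89, 0.79, -0.83 and -1.13 in WT and -0.84, -0.55, -1.65 and -0.88 in Cx43 KO, and without the single high array WT 2 the difference was -0.03. Mrpl42 and Uqcrc2 thus shared WT 2 as their high array.

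Mrpl49 was the single large subunit gene above the pool throughout, at 0.05, 0.09, 0.01 and 0.88 in WT and 0.37, 0.32, 0.23 and 0.11 in Cx43 KO. Its difference was 0.00 (SE 0.22), with WT 4 far above the other WT arrays. The remaining 8 genes, Mrpl17, Mrpl19, Mrpl24, Mrpl27, Mrpl35, Mrpl38, Mrpl39 and Mrpl55, had differences between -0.21 (Mrpl39) and 0.26 (Mrpl38). Mrpl27 was the least variable in Cx43 KO, at -0.02, -0.08, -0.12 and -0.10.

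In the small subunit 8 of 12 genes were tested, with 5 lower and 3 higher. Mrps36 measured -0.50, -0.93, -0.88 and -0.48 in WT and -0.78, -1.39, -1.40 and -1.38 in Cx43 KO. Every WT array lay above Cx43 KO 2, 3 and 4, while Cx43 KO 1 lay above WT 2 and 3. The means were -0.70 ± 0.24 (SD, n = 4) and -1.24 ± 0.30 (SD, n = 4), a difference of -0.54 or 0.69-fold (SE 0.20, unadjusted p = 0.025, adjusted p = 0.655), lower in 4 of 4 lot batches. Mrps36 did not pass the test after adjustment. Over 20 alternatives its difference ran from -0.69 to -0.35, with an unadjusted p under 0.05 in 10. That was lost under quantile normalization, scale normalization and array weights, without WT 1, WT 4, Cx43 KO 2 or Cx43 KO 3, and without lot batch 2, 3 or 4. The protein was named for the small subunit and is now known to belong to the oxoglutarate dehydrogenase complex of the citric acid cycle, so its place in the ribosome group rests on its name alone.

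Mrps14 had the highest difference of the small subunit. It measured -0.04, -0.49, -0.61 and 0.18 in WT and 0.34, 0.15, 0.35 and -0.04 in Cx43 KO, a difference of 0.44 (SE 0.21, adjusted p = 0.685). Cx43 KO 1 and 3 lay above every WT array, and lot batch 4 alone ran the other way, at -0.22. Mrps27, whose promoter carries the ETS letters and whose protein binds RNA, measured -0.30, -0.14, -0.46 and -0.76 in WT and -0.87, -0.64, -0.97 and -0.60 in Cx43 KO, a difference of -0.35 (SE 0.19, adjusted p = 0.696). Here too lot batch 4 ran against the other 3.

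Mrps18b was the member furthest from 0, and in the likely direction of the ratio the lowest against the pool. It measured -3.84, -4.99, -4.34 and -4.29 in WT and -5.35, -5.08, -4.40 and -4.22 in Cx43 KO, a mean of 0.042 of the pool ratio and a genotype difference of -0.40 (SE 0.31). The next small subunit gene from below was Mrps36, at a mean of -0.97. Mrps18b has a second feature, which carried no ratio on any array, so 1 feature stands for it. The other 4 genes, Mrps5, Mrps11, Mrps16 and Mrps28, had differences between -0.09 (Mrps5) and 0.24 (Mrps11).

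The array held 6 import genes of the inner membrane, and 4 could be tested. Timm44, which ties the import motor to the TIM23 channel, measured -0.44, -0.78, -0.97 and 0.30 in WT and -0.86, -0.87, -0.89 and -1.49 in Cx43 KO. Its difference was -0.56 (SE 0.28, adjusted p = 0.696). Cx43 KO 1, 2 and 3 lay close together inside the WT range, and WT 4 and Cx43 KO 4 were the extremes, so that without lot batch 4 the difference was -0.15.

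Timm17a, a channel subunit of TIM23, was the second lowest member against the pool, at -2.60, -4.25, -4.05 and -4.06 in WT and -4.28, -4.23, -4.21 and -3.62 in Cx43 KO. Its difference of -0.35 (SE 0.35) became 0.03 without WT 1. Timm8a1, a small chaperone of the intermembrane space, lay at 1.01, 0.19, 0.26 and 0.32 in WT and 0.64, 0.40, 0.21 and -0.28 in Cx43 KO, a difference of -0.20 (SE 0.25). Timm29, a part of the TIM22 complex, measured -0.26, -0.37, -0.09 and 0.00 in WT and -0.37, -0.03 and -0.06 on Cx43 KO 2, 3 and 4, a difference of 0.03 (SE 0.19). None of these 4 genes separated the genotypes.

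Of 5 outer membrane import genes 4 were tested, with means between -0.63 (Tomm22) and 0.12 (Tomm34), and 2 of them, Tomm22 and Tomm5, lay below 0 on every array. Tomm22, a receptor of the TOM complex, had the lowest difference at -0.13 (SE 0.19), with -0.56, -0.62, -0.72 and -0.34 in WT and -0.68, -1.06, -0.73 and -0.31 in Cx43 KO. Tomm7, a small subunit of the complex, had the highest at 0.05 (SE 0.23), with -0.13, -0.10 and -0.17 on WT 1, 3 and 4 and 0.13, 0.27, -0.19 and -0.56 in Cx43 KO. The Cx43 KO arrays of Tomm7 spread to both sides of the WT arrays. Tomm34, a largely cytosolic cochaperone, measured 0.13, 0.03, 0.08 and 0.18 in WT and -0.18, 0.12, 0.21 and 0.38 in Cx43 KO, a difference of 0.03 (SE 0.17). Tomm5, another small subunit, differed by 0.00 (SE 0.22), and the receptor Tomm70a had no ratio.

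The array held 17 carrier genes, and 8 could be tested. Slc25a17, which despite the family name is a carrier of peroxisomes, was the highest member against the pool, at 0.84, 0.80, 0.32 and 0.55 in WT and 0.98, 0.92, 0.60 and 0.70 in Cx43 KO. Cx43 KO lay higher within each of 4 lot batches, by 0.11 to 0.28, yet the genotypes overlapped and the difference was 0.17 (SE 0.18, adjusted p = 0.843). Slc25a47, a carrier known from liver, was among the 3 lowest members, at -3.46, -2.70, -2.62 and -3.11 in WT and -2.72, -2.86, -3.43 and -3.11 in Cx43 KO, a difference of -0.06 (SE 0.24). Liver RNA is part of the pool.

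The carriers with the most spread were in Cx43 KO. Slc25a11, the oxoglutarate carrier of the malate-aspartate shuttle, measured -0.79, -1.15, -1.21 and -1.08 in WT and -0.51, -2.99, -1.63 and -0.81 in Cx43 KO. Its difference of -0.43 (SE 0.45) became 0.07 without Cx43 KO 2. Slc25a10, the dicarboxylate carrier, measured -1.03, -0.99, -1.06 and -1.21 in WT and -1.42, -1.91, -0.22 and -0.01 in Cx43 KO, so that Cx43 KO 1 and 2 lay below and Cx43 KO 3 and 4 above all WT arrays, with a difference of 0.18 (SE 0.38).

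Slc25a23, a calcium-dependent ATP-Mg and phosphate carrier, measured -0.77, -0.02, -0.51 and 0.35 in WT and 0.55, 0.39, 0.29 and -1.49 in Cx43 KO. Cx43 KO 4, the array with the high microglia and fibroblast markers, lay far below the other 3 Cx43 KO arrays; the part of those cells in its value was not tested. The difference of 0.18 (SE 0.43) with all arrays was within the spread. The mitoferrins Slc25a28 and Slc25a37, which import iron, differed by 0.01 (SE 0.20) and 0.00 (SE 0.23), and the carnitine-acylcarnitine carrier Slc25a20 by -0.27 (SE 0.25).

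Of the 44 members that were not tested, 32 had no ratio on any array and 12 had ratios on too few. Of these 12, 11 had no ratio on either WT 2 or WT 3, the WT arrays with the fewest ratios. Members were tested at 56%, against 49.8% of all named genes. Among tested members 9 had 2 features and 47 had 1, and 13 features naming several genes that match the symbol rule were left out. For the 3 tested members with 2 features measured on at least 6 arrays, the features of Mrpl19 differed between genotypes by 0.34 and -0.15, those of Mrps5 by -0.25 and 0.08, and those of Ndufaf4 by -0.25 and -0.10. In each of these 3 genes the 2 features differed from each other by more than 0.13, the median size of a member's genotype difference.

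Beyond the symbol rule, 5 lists of related mitochondrial genes held 69 genes present on the array, and 44 could be tested. Of these, 28 lay higher and 16 lower in Cx43 KO, 5 (11.4%) had an unadjusted p under 0.05, against 7.5% of all tested, and 0 passed limma's adjusted test. All 7 tested genes of mitochondrial dynamics and the outer membrane and 7 of 8 chaperone, protease and processing genes lay higher. The citric acid cycle and pyruvate dehydrogenase list had 7 of 11 higher, the mitochondrial DNA, RNA and translation list 3 of 6, and the other respiratory chain and coenzyme Q list 4 of 12. Of all tested, 47.4% lay lower in Cx43 KO. The list counts are given for the main setting only, and the sign balance of the members changed with the scaling of the arrays. These counts describe the direction of differences, and no single gene passed.

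The 2 genes with the smallest p in each of these lists were as follows. Immt, which builds the contact sites of the cristae, measured -0.03, 0.14, -0.26 and -0.02 in WT and 0.57, 0.51, 0.32 and 0.25 in Cx43 KO, a difference of 0.45 (SE 0.16, adjusted p = 0.655). Every Cx43 KO array of Immt lay above every WT array, as did those of 2.43% of all tested. Hspa9, the chaperone of the matrix import motor, measured 0.15, 0.55, -0.01 and 0.52 in WT and 1.19, 0.95, 0.29 and 1.17 in Cx43 KO, a difference of 0.60 (SE 0.24, adjusted p = 0.655), with Cx43 KO 3 inside the WT range. Mfn2, a fusion protein of the outer membrane, differed by 0.47 (SE 0.20) and Hk1, the hexokinase that docks there, by 0.44 (SE 0.23).

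Pcx, the pyruvate carboxylase that lets astrocytes refill the citric acid cycle, measured -0.11, 0.41, -0.10 and 0.46 in WT and 1.99, 1.76, 1.14 and 0.02 in Cx43 KO. Its difference was 1.06 (SE 0.38, adjusted p = 0.655), with Cx43 KO 1, 2 and 3 above every WT array and Cx43 KO 4 among them. Pdhx, a component of pyruvate dehydrogenase, differed by -0.41 (SE 0.23), the leucyl-tRNA synthetase Lars2 by 0.41 (SE 0.35), the RNA-binding protein Ptcd1 by -0.26 (SE 0.18) and Coq2, of coenzyme Q synthesis, by 0.34 (SE 0.17). None of these passed.

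Nnt, the transhydrogenase that makes matrix NADPH, measured 0.48, 0.27, -0.34 and -0.05 in WT and -0.67, -1.29 and -1.41 on Cx43 KO 1, 3 and 4. All 3 measured Cx43 KO arrays lay below all WT arrays, as in 2.8% of all tested, a difference of -1.21 (SE 0.26, adjusted p = 0.449). C57BL/6J mice are known to carry a deletion within Nnt. The labels give C57BL/6j for the pool and, among the astrocytes, for WT 1 only, and WT 1 had the highest Nnt value (0.48). A difference in strain background between genotypes was not tested.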

How the data were processed

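As deposited, each value is a signed log ratio between the 2 channels of an array and was taken as log2. Its log base, dyes, scanner and within-array normalization were not stated in the labels. Exact 0, which filled 42.4% to 63.4% of the features of an array, was read as no ratio. The median of its ratios was subtracted from each array, and features of a gene were averaged within an array. Genes and unnamed features with 3 or more values per genotype were tested with limma 3.58.1 (lmFit and eBayes, R 4.3.3), two-sided, with Benjamini-Hochberg adjustment over all 3505 at 0.05. Differences, Cx43 KO minus WT, carry the SE and 95% interval of that fit. Depth is not defined for arrays, and their number limits the precision.

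The members, the lists and the alternatives were chosen with earlier results of these data known. Values in every array are given for Ndufa3, Cox6b2 and Uqcr10, for members at an unadjusted p under 0.05, for the lowest and highest difference of each role and for the 6 highest and 6 lowest levels. Of the related lists, the 2 genes with the smallest p, Nnt and Hspa9 are named. The values of Mrps27, Slc25a23 and Mrpl27 on each array were chosen after values were seen. The lot batch in the labels pairs arrays of the same number. Across 2596 genes, which are not independent replicates, deviations of paired arrays from their genotype mean correlated with r of -0.184, 0.185, -0.131 and -0.185 in lot batches 1 to 4. The fit was tested on simulated data. Alternatives changed the centring, the scaling between arrays, the block, array weights, the filter on missing ratios, the choice of feature and the reading of 0, or left out an array or a lot batch. Gene names came from the platform annotation (318 features with several symbols and 1943 unnamed ones name no member), and promoters from RefSeq's table of GRCm38.p6.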

Additional observations from a re-analysis of the deposited data

Results flagged for a closer look

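In groups of 4 arrays, single arrays were examined for a gap to the nearest other array that is large against the group's range. Of 101 such groups, 10 (9.9%) had such an array, where chance gives about 1 in 20 groups. The same count over all genes is not given here. Cx43 KO 4 accounted for 4 of them. Of all genes and features with 8 values, 22.8% had their lowest and 20.2% their highest value on Cx43 KO 4. For the 43 members these shares were 18.6% and 16.3%. On that array Cox7a2l lay at 0.08, against -0.89 to -0.79 on the other Cx43 KO arrays, and Timm17a at -3.62, against -4.28 to -4.21. Slc25a23 lay at -1.49 on Cx43 KO 4, against 0.29 to 0.55, and Timm44 also at -1.49, against -0.89 to -0.86. WT 1 accounted for 3, with Timm17a at -2.60 against -4.25 to -4.05, Timm8a1 at 1.01 against 0.19 to 0.32, and the median of the 43 members with 8 values at -0.66 against -0.78 to -0.76. The remaining 3 were Mrpl42 at 0.79 on WT 2, Mrpl49 at 0.88 on WT 4 and Mrps36 at -0.78 on Cx43 KO 1, where the other 3 arrays lay between -1.40 and -1.38. Cx43 KO 4 was also the array with the lowest astrocyte mean (0.49) and the highest microglia mean (2.51). WT 1 had the highest fibroblast mean of the WT arrays (2.22, against 0.53 to 1.15), near the 2.56 of Cx43 KO 4. The part of these cells in the values was not tested.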

How the results depend on the processing

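Under all 20 alternatives limma called 0 members. Of all tested, it called 2 of 3505 with array weights, 1 of 3146 without WT 2 and 4 of 3143 without Cx43 KO 4. Under the other alternatives it called 0 of all tested. The median member difference turned from -0.03 to 0.07 under quantile and under scale normalization. The number of members at an unadjusted p under 0.05, 1 as reported, was 3 with quantile normalization, 4 with scale normalization, 4 with array weights and 4 with exact 0 kept as a ratio, against 6.13%, 6.82%, 14.58% and 4.14% of all tested. Mrps36 was among them only with exact 0 kept, and Cox6b2 and Mrpl38 were among them in the first 3. When 1 array was left out, the number of members at an unadjusted p under 0.05 ran from 0 to 3. It was 0 of 47 without WT 1, 0 of 55 without Cx43 KO 2 and 0 of 52 without Cx43 KO 3. The shares of all tested there were 6.1%, 6.9% and 5.57%. Counts were 2 of 51 without WT 3, 2 of 47 without WT 4 and 2 of 53 without Cx43 KO 1. Here the shares of all were 4.49%, 9.79% and 6.27%. Without WT 2 it was 1 of 52, against 5.75% of all, and without Cx43 KO 4 it was 3 of 52, against 12.22%. Without lot batch 2 it was 0 of 51, against 5.25%, and without lot batch 4 it was 3 of 43, against 16.35%. Keeping exact 0 as a ratio raised the members tested to 100 and those below the pool on every array from 37 to 76, by construction, since a 0 lies below the centre of each array. With exact 0 kept, 76% of members and 56.1% of all tested lay below 0 on every array. Leaving out 1 array placed 31 to 37 of the members still tested there (65.4% to 72.3%), against 25.8% to 28.6% of all tested.

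A replicate block for the lot batch left the count of members at an unadjusted p under 0.05 at 1 and changed no call, and of the named members Tomm7 alone turned sign, to -0.07. Among 491 differences of 27 named members under the alternatives, 430 kept their sign and 61 turned, all of genes that were not called, and 11 members never turned. Under quantile normalization the differences that turned were Cox7a2l at 0.00, Mrpl49 at -0.01, Ndufb8 at 0.17, Sdhb at 0.07 and Slc25a47 at 0.23. Under scale normalization they were Mrpl49 at -0.01, Mrps18b at 0.33, Ndufb8 at 0.24, Sdhb at 0.07, Slc25a47 at 0.43 and Timm17a at 0.27. With array weights they were Slc25a10 at -0.12, Timm29 at -0.01, Timm8a1 at 0.06 and Tomm34 at -0.06, and with exact 0 kept, Timm29 at -0.00. Without lot batch 1 they were Cox7a2l at 0.05, Mrpl49 at -0.11, Ndufa9 at 0.02 and Timm17a at 0.10, and without lot batch 2, Mrpl49 at -0.07, Slc25a11 at 0.04 and Tomm7 at -0.07. Without lot batch 3 they were Cox7a2l at 0.07, Mrpl49 at -0.07, Ndufa9 at 0.17, Ndufb8 at 0.10, Slc25a10 at -0.04, Slc25a47 at 0.19 and Tomm34 at -0.01, and without lot batch 4, Ndufaf7 at 0.01, Ndufb8 at 0.04, Slc25a10 at -0.16 and Tomm34 at -0.03. The cause was not tested.

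Leaving out 1 array in turn gave -0.32 to 0.01 for Cox7a2l, -0.08 to 0.21 for Mrpl49, -0.10 to 0.09 for Ndufa9, -0.27 to 0.03 for Ndufaf7, -0.12 to 0.07 for Ndufb8 and -0.43 to 0.58 for Ndufb9. It gave -0.11 to 0.52 for Slc25a10, -0.75 to 0.07 for Slc25a11, -0.22 to 0.07 for Slc25a47, -0.52 to 0.03 for Timm17a, -0.04 to 0.09 for Timm29, -0.05 to 0.13 for Tomm34 and -0.07 to 0.20 for Tomm7. An array left out can leave a gene with too few values, and then gives none. Members with 7 values had fewer such settings. Of the 44 untested members, the 32 without any ratio, ATP synthase among them, have no value here.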
